A study of Mus musculus with 16 samples.

Results

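The genes described here encode 9 structural proteins of the axoneme, the microtubule core of a motile cilium or sperm tail: Rsph1, Rsph4a and Rsph9 of the radial spokes, Gas8, Drc1, Drc3 and Drc7 of the nexin-dynein regulatory complex, and Hydin and Spef2 of the central apparatus. They were chosen by name, 9 of the 21887 protein-coding genes on the mouse chromosomes, and all 9 were found in the gene table. The working name of the set speaks only of radial spokes and the regulatory complex, but Hydin and Spef2 belong to the central pair of microtubules that the spokes reach. For each gene every peak whose midpoint lay inside the gene or within 10 kb of either annotated end was taken, and a peak was called near an end where its midpoint lay within 1 kb of one.

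The peaks came from CUT&RUN, in which an antibody in unfixed cells brings micrococcal nuclease to a chromatin protein which releases the neighbouring DNA for sequencing. Tissue came from CD-1 mice, an outbred strain. Retinas were taken at embryonic day 16 and pooled, with about 300000 dissociated cells in each assay. The libraries numbered 4 with anti-Foxn3 (2 experiments), 2 with anti-Foxn4, 2 with anti-Rfx3, 4 with rabbit IgG set beside Foxn3, 2 with rabbit IgG set beside Rfx3 and 2 with mouse IgG set beside Foxn4. Nuclease digestion took 1 h, and about 12 h for the anti-Foxn4 and mouse IgG libraries. No group carried a mutation or a treatment. Each antibody had a single deposited list, with 2794 peaks for Foxn3, 2956 for Foxn4 and 3981 for Rfx3, so no value below has a spread between replicates, depth per library is unknown, no IgG level stands beside a peak, and no test was made. Retina holds many cell types, and the lists cannot tell in which of them a site was occupied. In any comparison with Foxn4, the antibody, the digestion time and the control species cannot be told apart.

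In a motile axoneme the outer doublet microtubules surround a central pair. Radial spokes stand on the doublets and touch the projections of the central pair, and the nexin-dynein regulatory complex links neighbouring doublets and relays the signal of the spokes to the dynein motors. Primary cilia, including the cilium from which a photoreceptor outer segment grows, lack the central pair and the spokes. Rfx3 is a winged-helix factor that binds the X-box, a motif found before many ciliary genes, and Foxn3 and Foxn4 are forkhead proteins. Forkhead factors of the Foxn group can bind GACGC, called the FHL motif. The general forkhead motif, GTAAACA, was searched as well. A peak is evidence of occupancy in the assay and says nothing of whether the gene was transcribed, which was not measured here.

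Of the 9 genes, 8 had a Foxn3 peak near an end and the same 8 had an Rfx3 peak there, in each case overlapping. Among all protein-coding genes 8.82% had a Foxn3 peak near an end, 10.6% an Rfx3 peak, and 7.56% had both. Drc3 was the single gene of the 9 with a Foxn4 peak near an end, against 4.84% of all genes. Drc7 was the exception in the other direction, with no peak of any list near its ends. The combination of Foxn3 and Rfx3 without Foxn4 was seen at 7 of the 9 genes, and at 4.5% of all genes. The members and the lists used below were chosen with earlier results of these data known, so these counts are descriptions.

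The promoter sequences of the genes with an annotated start show what lay under these peaks, and they are printed from 100 bases before to 30 bases from the transcription start (RefSeq, GRCm38.p6, the assembly of mm10). RefSeq windows were matched for 7 of the 9 genes by gene identifier, and Rsph1 and Rsph4a were not among them. Capitals mark each match that lies wholly within the printed stretch, on either strand, to GTTGCC or GTTGCT (an arm of the X-box, whose reverse complements read GGCAAC and AGCAAC), to an X-box with both arms (GTNNCC and GGNNAC with 2 bases between them, N being any base) and to GACGC (reverse complement GCGTC). The first set lay under a Foxn3 and an Rfx3 peak, and the last sequence, that of Drc7, lay under none.
Rsph9 (chr17:46144171-46144300, minus strand): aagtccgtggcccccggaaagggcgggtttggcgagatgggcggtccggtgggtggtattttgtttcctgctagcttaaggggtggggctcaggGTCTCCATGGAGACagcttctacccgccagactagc
Gas8 (chr8:123518735-123518864, plus strand): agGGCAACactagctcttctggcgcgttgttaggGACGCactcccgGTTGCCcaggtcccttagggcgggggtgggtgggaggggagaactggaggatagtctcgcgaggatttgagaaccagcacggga
Drc1 (chr5:30281293-30281422, plus strand): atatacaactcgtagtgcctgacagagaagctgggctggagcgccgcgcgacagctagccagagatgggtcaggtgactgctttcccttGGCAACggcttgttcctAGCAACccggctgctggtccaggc
Drc3 (chr11:60353280-60353409, plus strand): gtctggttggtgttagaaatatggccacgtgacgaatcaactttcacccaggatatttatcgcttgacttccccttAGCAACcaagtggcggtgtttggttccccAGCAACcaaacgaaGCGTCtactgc
Hydin (chr8:110266877-110267006, plus strand): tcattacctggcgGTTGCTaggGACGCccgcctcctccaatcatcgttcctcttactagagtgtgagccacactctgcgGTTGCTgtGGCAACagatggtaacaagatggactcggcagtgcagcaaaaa
Spef2 (chr15:9748839-9748968, minus strand): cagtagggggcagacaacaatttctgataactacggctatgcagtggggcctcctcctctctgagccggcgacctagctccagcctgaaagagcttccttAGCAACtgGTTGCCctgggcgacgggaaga
Drc7 (chr8:95055003-95055132, plus strand): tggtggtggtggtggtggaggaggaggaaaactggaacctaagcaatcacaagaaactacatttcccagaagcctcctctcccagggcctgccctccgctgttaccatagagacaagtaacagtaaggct

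The deposited score of a peak was used only to rank it within its own list, as the percentage of peaks of that list with a lower score. Over the 8 genes with a peak near an end, the Foxn3 percentile ranged from 55.0 to the top of the list with a median of 90.7, and the Rfx3 percentile ranged from 65.0 to 99.6 with a median of 82.7. All protein-coding genes with such a peak had medians of 53.8 for Foxn3 and 47.8 for Rfx3. Every one of the 8 genes lay above the middle of both lists. In each list 4 of the 8 stood at or above the 90th percentile, which 13.8% of all genes with a Foxn3 peak and 13.6% of those with an Rfx3 peak did. The genes above it in both lists were Rsph1, Gas8, Drc3 and Hydin, and those below it in both were Rsph4a, Rsph9, Drc1 and Spef2.

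**Figure D1:**
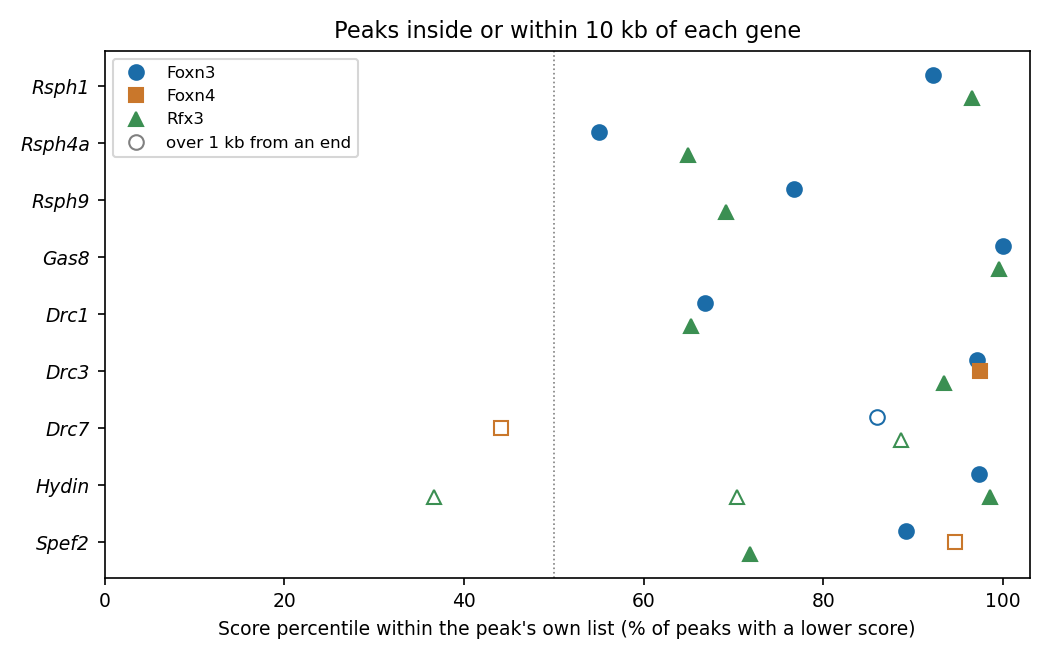
Score percentile of each peak within its own list (horizontal axis, % of peaks with a lower score) for each of the 9 genes. Filled symbols are peaks within 1 kb of an annotated end, open symbols are peaks farther away, and the dotted line is the middle of a list. All filled symbols lie at or above 55.0, and the filled Foxn4 symbol, at 97.5, belongs to Drc3.

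Among the radial spoke genes, Rsph1, Rsph4a and Rsph9 encode proteins of the spoke head, the end that faces the central pair. Rsph1 (chr17:31255019-31277296, 22.3 kb) had the highest-ranked peaks of the 3. Its Foxn3 peak at chr17:31277233-31277800 scored 149 (percentile 92.2) and its Rfx3 peak at chr17:31276984-31277724 scored 702 (percentile 96.6). Both covered the higher-numbered end of the gene. Their midpoints were 162 bp apart, the widest separation among the 9 genes. The Rfx3 midpoint lay 58 bp and the Foxn3 midpoint 220 bp beyond the gene. No other gene had an end within 1 kb of these midpoints.

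Rsph4a (chr10:33905111-33916021, 10.9 kb), the shortest gene of the set, had its peaks at the lower-numbered end. The Foxn3 peak at chr10:33904883-33905155 scored 34.6 (percentile 55.0), the lowest Foxn3 rank of the 8 genes. The Rfx3 peak at chr10:33904843-33905188 scored 115 (percentile 65.0), also the lowest Rfx3 rank. The Foxn3 peak lay wholly inside the Rfx3 peak, and their midpoints were 3.5 bp apart.

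Rsph9 (chr17:46122038-46144242, 22.2 kb) carried a pair of almost identical intervals. The Foxn3 peak at chr17:46144054-46144389 scored 64.5 (percentile 76.8) and the Rfx3 peak at chr17:46144054-46144390 scored 134 (percentile 69.2), with midpoints 0.5 bp apart. Both midpoints lay 22 bp before the annotated start. The Rsph9 promoter was the only one of the 7 with a match to the X-box with both arms, the palindrome printed in capitals above, which spans the start site and whose centre lay 22 bp from both midpoints. It held neither separate arm and no GACGC.

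Of the regulatory complex genes, Gas8 (chr8:123518835-123536657, 17.8 kb), also known as Drc4, encodes a core subunit of the complex. It had the strongest peaks of the set. Its Foxn3 peak at chr8:123518576-123518987, with a score of 1444, ranked first of the 2794. The Rfx3 peak at chr8:123518579-123518980, with a score of 1623, ranked 15 among 3981. The peaks were 412 and 402 bp wide, the smaller lay inside the larger, and their midpoints were 2 bp apart. In the printed promoter a GTTGCC lay 2 bp from the Foxn3 midpoint and 4 bp from the Rfx3 midpoint, and a GACGC lay 10 and 8 bp from them. Another arm lay upstream, and a further GTTGCC, past the printed stretch, began 40 bases after the start. Dbndd1 (chr8:123504718-123518277) also has an end 504 bp from the Foxn3 midpoint and so shares this peak by the 1 kb rule.

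Drc1 (chr5:30281335-30366695, 85.4 kb), a subunit that the assembly of the complex depends on, had narrow peaks of middle rank. The Foxn3 peak at chr5:30281289-30281480 scored 46.7 (percentile 66.9) and was 192 bp wide. The Rfx3 peak at chr5:30281254-30281503 scored 116 (percentile 65.3) and was 250 bp wide. These were the narrowest peaks near an end in each list over the 8 genes. The centre of the upstream GGCAAC lay at the Foxn3 midpoint, to the nearest base, and 6 bp from the Rfx3 midpoint. An AGCAAC on the same strand followed after 11 bases.

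Drc3 (chr11:60352881-60394342, 41.5 kb), a leucine-rich repeat protein of the complex, was the gene with all 3 factors at an end. The Foxn3 peak at chr11:60352760-60353533 scored 269 (percentile 97.1), the Foxn4 peak at chr11:60352885-60353404 scored 17.8 (percentile 97.5) and the Rfx3 peak at chr11:60352796-60353531 scored 487 (percentile 93.5). The Foxn4 peak ranked 60 in its list. Its midpoint was 2 bp from that of Foxn3 and 19 bp from that of Rfx3. The peaks were centred 216 to 236 bp before the annotated start of Drc3, farther than the peaks near an end of Rsph9, Gas8, Drc1, Hydin and Spef2 were from theirs. On the other side they were centred 240 to 258 bp before the start of Tom1l2 (chr11:60226714-60352932), which is read in the opposite direction, so the midpoints lay between the starts of a divergent gene pair. All 3 peaks covered both starts and cannot be given to either gene. The annotated body of Drc3 begins before the start used here, so the same midpoints lay 264 to 282 bp inside that body. The arms in the Drc3 promoter lay 195 to 224 bp from the Rfx3 midpoint and its GACGC 254 bp from the Foxn3 midpoint. The Tom1l2 window held a pair of GACGC matches, at 114 and 180 bp from the Foxn3 midpoint and 112 and 178 bp from the Foxn4 midpoint. It held no X-box arm.

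Drc7 (chr8:95055103-95078141, 23.0 kb), another subunit of the complex, had no peak near either end and none inside the gene. The nearest peaks lay beyond its far end, 25.8 kb past its annotated start. They were a Foxn3 peak with a score of 98.1 (percentile 86.0), a Foxn4 peak with a score of 7.11 (percentile 44.1) and an Rfx3 peak with a score of 335 (percentile 88.7). All 3 overlapped. Their midpoints were 2810, 2877 and 2848 bp from the nearer end of Drc7. The Drc7 promoter window of 300 bases held no match to any of the motifs searched. In the printed stretch gttaccatagagac, which begins at the start, differs from the X-box with both arms only in an A for the first G of GGNNAC. Such near matches were not counted in any window. No match says only that these letters are not in the window.

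Of the central apparatus genes, Hydin (chr8:110266968-110610253, 343 kb) encodes a very large protein of a central pair projection, and its loss in mice causes hydrocephalus. Its Foxn3 peak at chr8:110266750-110267276 scored 277 (percentile 97.3). The Rfx3 peak at chr8:110266493-110267492 scored 1109 (percentile 98.6), was 1000 bp wide, the widest of the set, and held the whole of the Foxn3 peak. The midpoints lay 36 and 16 bp after the annotated start. In the promoter a GTTGCT and a GGCAAC faced each other with 2 bases between them, the spacing of the X-box with both arms, whose letters as searched they did not match. The centre of the GGCAAC lay 26 bp from the Rfx3 midpoint, and the GACGC lay 112 bp from the Foxn3 midpoint. The long non-coding RNA gene Gm26832 (chr8:110262146-110267022) ends 9 bp from the Foxn3 midpoint and 30 bp from the Rfx3 midpoint. The end of Hydin lay 45 and 24 bp from them, so these peaks cannot be given to either gene alone.

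Hydin held 2 further Rfx3 peaks deep inside the gene. The peak at chr8:110465716-110466096 scored 139 (percentile 70.4) and the peak at chr8:110500344-110500550 scored 57 (percentile 36.7). Neither overlapped a Foxn3 or Foxn4 peak, and they were the only Rfx3 peaks of the 9 genes without Foxn3. Whether they lie in exons or introns is not given, because the gene table holds only the start and end of each gene.

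Spef2 (chr15:9578193-9748868, 171 kb), which encodes a central apparatus protein needed for sperm tail formation, had its Foxn3 peak at chr15:9748770-9749011 with a score of 120 (percentile 89.2). The Rfx3 peak at chr15:9748683-9749049 scored 146 (percentile 71.9). They were centred 22 bp before and 2 bp after the annotated start. An AGCAAC began at the start site and a GTTGCC pointing the other way followed after 2 bases. The AGCAAC was centred on the Rfx3 midpoint to the nearest base. A GACGC, which crosses the last printed base and is therefore not in capitals, lay 52 bp from the Foxn3 midpoint. Spef2 also held a Foxn4 peak inside the gene at chr15:9657375-9657480, 79.2 kb from the nearer end. That peak was 106 bp wide, narrower than all but 1.08% of its list, with a score of 15.1 (percentile 94.7), and overlapped neither other list. Peaks under 150 bp made up 2.74% of the Foxn4 list, 0.394% of the Foxn3 list and 0.0251% of the Rfx3 list.

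**Figure D2:**
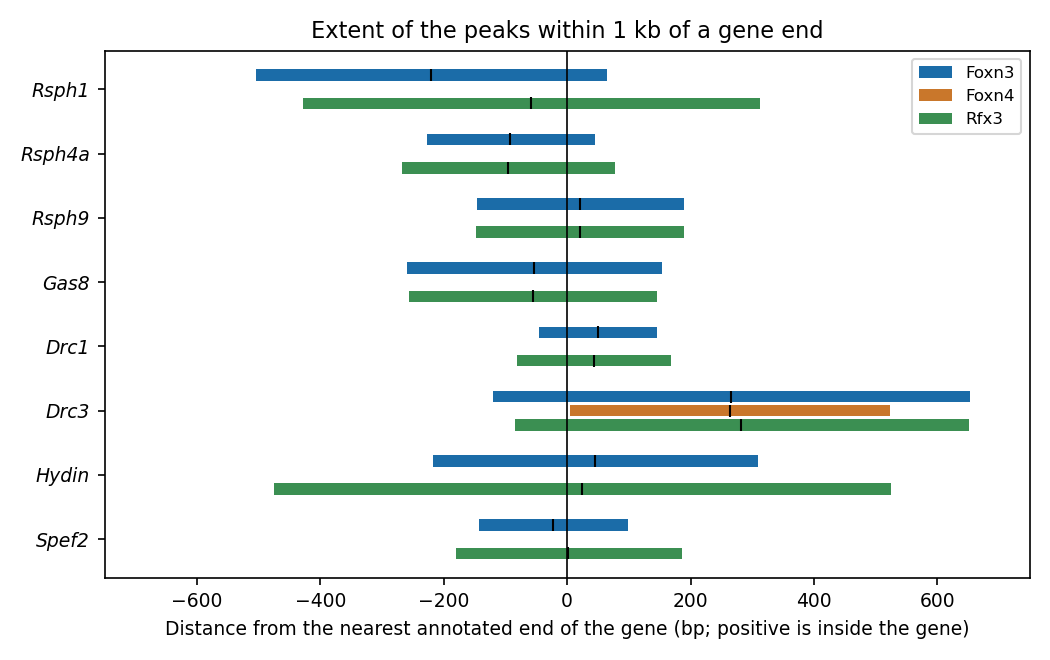
Extent of each peak within 1 kb of an annotated gene end (bars) and its midpoint (black tick), in bp from that end, with positive values inside the gene, for the 8 genes with such a peak. Foxn3 and Rfx3 bars cross the end at each gene; the Drc3 bars, including the only Foxn4 bar, are centred 264 to 282 bp inside the annotated gene.

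Over the set, 9 Foxn3, 3 Foxn4 and 11 Rfx3 peaks were assigned. Within 10 kb or inside the gene, all 9 genes had Foxn3 and Rfx3 peaks, against 15.2% and 19.0% of all protein-coding genes, and 3 had a Foxn4 peak, against 10.5%. Drc7 entered these counts only through the site beyond its end, and without it they were 8, 8 and 2. Long genes offer more room under this rule. Among genes at least as long as Rsph4a the shares were 17.3% for Foxn3, 22.0% for Rfx3 and 12.6% for Foxn4. All 9 Foxn3 peaks overlapped an Rfx3 peak, while 9 of the 11 Rfx3 peaks overlapped Foxn3. Of all Foxn3 peaks near a gene end 85.3% overlapped Rfx3, and of all such Rfx3 peaks 68.7% overlapped Foxn3. Of the peaks near an end, 8 of 8 overlapped in each direction. With Foxn4, 2 of the 9 Foxn3 peaks and 2 of the 11 Rfx3 peaks overlapped, those of Drc3 and of the site beyond the end of Drc7. Of the peaks near an end, 1 of the 8 Foxn3 and 1 of the 8 Rfx3 peaks overlapped Foxn4, and 37.4% of all Foxn3 peaks and 32.5% of all Rfx3 peaks near gene ends did so.

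The overlapping Foxn3 and Rfx3 midpoints of the 9 genes were a median of 17 bp apart, with quartiles of 3.5 and 24.5 bp. They include the site beyond Drc7, with midpoints 39 bp apart, which is not near an end as the peaks compared next are. For the 1348 Foxn3 peaks near any gene end that overlapped Rfx3 the median was 45.2 bp, with quartiles of 20.5 and 89.1 bp. Peaks near an end had a median width of 374 bp for Foxn3 and 384 bp for Rfx3, and the lists as a whole 384 and 469 bp. The high ranks of the set were thus ranks by score: by width, the same peaks had median percentiles of 46.9 and 30.6.

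The nearest Foxn4 midpoint was 287 kb from an end of Rsph1, 557 kb from Rsph4a, 16.7 kb from Rsph9 and 306 kb from Gas8. It was 594 kb from Drc1, 0.264 kb from Drc3, 2.88 kb from Drc7, 381 kb from Hydin and 79.2 kb from Spef2. Such distances were not measured for all genes, so whether these are unusual is not known. Of the 1654 protein-coding genes with both Foxn3 and Rfx3 near an end, 40.4% also had Foxn4, compared with 1 of the 8 here. Another protein-coding gene shared the peaks of 2 of the 8 genes, Gas8 and Drc3, and 40.2% of all genes with a Foxn3 peak near an end were in that position.

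Motif matches in the 7 promoter windows of 300 bases (250 before and 50 from the start) were set beside all 21238 windows of protein-coding genes. GTTGCC was found at Gas8, Drc1, Hydin and Spef2, 4 of the 7, and in 12.7% of all windows. The variant GTTGCT, added after the promoters had been read, was found at Drc1, Drc3, Hydin and Spef2, 4 of the 7, and in 14.0% of all windows. Either of them occurred at 5 of the 7 and in 24.5%. The X-box with both arms occurred at Rsph9 alone, 1 of the 7, and in 1.96% of all windows. Matches to it can coincide with those to GTTGCC. Either GTTGCC or the X-box with both arms occurred at 5 of the 7 and in 13.6% of all windows, and with GTTGCT added the count was 6 of the 7 against 25.3%. Drc3 entered only through GTTGCT, and the Drc7 window held none of these. All of the 7 windows but that of Drc7 overlapped Foxn3 and Rfx3 peaks, and both peaks covered the whole window only at Gas8 and Drc3. In the 1059 windows with Foxn3 and Rfx3 midpoints GTTGCC occurred in 29.3%, GTTGCT in 24.8% and either of them in 46.7%. There the X-box with both arms occurred in 12.9%, GTTGCC or that X-box in 34.3%, and with GTTGCT added the share was 51.4%.

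GACGC was found at Gas8, Drc3, Hydin and Spef2, 4 of the 7, and in 33.4% of all windows. In the windows with Foxn3 and Rfx3 midpoints its share was 58.4%, beside 4 of the 6 genes here with both peaks near an annotated start. GTAAACA was found in none of the 7 and in 3.0% of all windows. At Gas8, Drc1, Drc3, Hydin and Spef2 the nearest arm was 4, 6, 195, 26 and 0 bp from the Rfx3 midpoint and 2, 0, 212, 46 and 25 bp from the Foxn3 midpoint. The nearest GACGC in the gene's own window was 10, 254, 112 and 52 bp from the Foxn3 midpoint at Gas8, Drc3, Hydin and Spef2, and Drc1 had none. At Gas8, Hydin and Spef2 an arm was closer to the Foxn3 midpoint than a GACGC, whereas under the Drc3 peak the GACGC matches of the Tom1l2 window were closer than the arms. GC content ran from 44.3% (Drc3) to 55.7% (Gas8), with a median of 56.3% over all windows. A match is a run of letters and does not show that a factor contacts it.

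**Figure D3:**
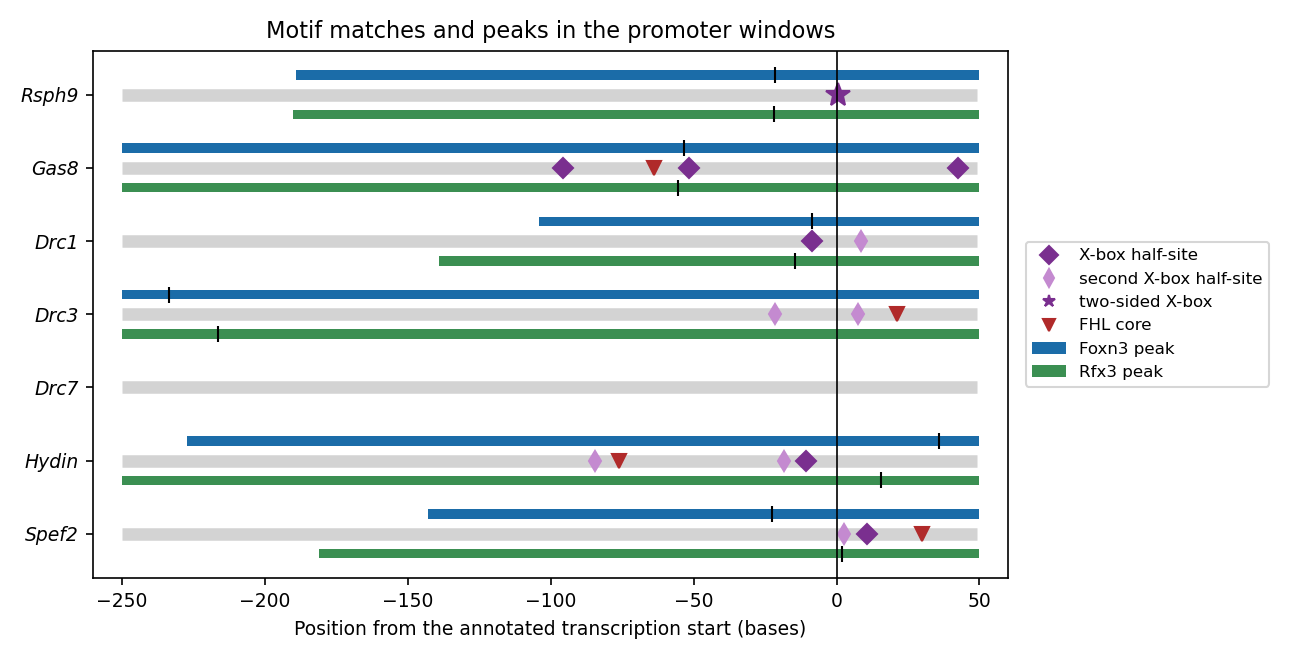
Motif matches (symbols) in the promoter windows of the 7 genes with an annotated start (grey bars, bases from the start), with the Foxn3 peak above and the Rfx3 peak below each window and their midpoints as black ticks; peaks are cut at the window's edges, and the Foxn4 peak of Drc3 is not drawn. Dark diamonds are GTTGCC, pale diamonds GTTGCT, the star the X-box with both arms and triangles GACGC; arms lie beside the ticks at Gas8, Drc1 and Spef2, those of Drc3 lie 195 bp or more from its ticks, and the Drc7 window holds neither a match nor a peak.

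Other genes of the same structures were counted by the same rule. Of 18 further radial spoke symbols 17 were matched in the gene table, and 8 of them had Foxn3 and 9 had Rfx3 near an end. These counts include both Dydc1 and Dydc2, which had the same percentiles, 79.7 for Foxn3 and 58.0 for Rfx3, and so may share the same peaks. Wdr66 (Cfap251), a protein at the base of a spoke, stood at percentile 98.6 for Foxn3 and 99.1 for Rfx3, Rsph14 at 94.9 and 95.5, Cfap206 at 96.7 and 89.2, and Maats1 (Cfap91) at 94.5 and 88.9. Of 8 further regulatory complex genes, 5 had Foxn3 and the same 5 had Rfx3. Fbxl13 stood at 94.4 and 96.7, with Armc10 sharing the peak, Tcte1 at 96.8 and 87.4, Iqcg at 75.1 and 80.9, with Rpl35a sharing it, and Ccdc65 (Drc2), the partner of Drc1, at 93.1 and 80.8. Of 15 further central apparatus genes 7 had both. Kif9, a kinesin of the central pair, stood at 97.6 and 93.7 (shared with Klhl18), Stk36 at 98.8 and 87.6 (shared with Rnf25), Cfap46 at 88.5 and 86.7, and Spag16 at 87.6 and 83.3.

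None of these 40 genes had a Foxn4 peak near an end, and 6 had one inside or within 10 kb. Together, 20 of the 40 (50.0%) had Foxn3 and 21 (52.5%) had Rfx3 near an end, and the called genes had median percentiles of 92.8 and 83.3, close to those of the 8. Of 15 genes for axonemal dynein heavy chains, the motors that these structures control, 5 (33.3%) had Foxn3, 8 (53.3%) had Rfx3 and none had Foxn4. Those with Rfx3 but not Foxn3 were Dnah7a, Dnah7b and Dnah7c, at Rfx3 percentiles of 33.0, 40.9 and 26.5, below the middle of the list. Of 14 dynein assembly factor genes 8 (57.1%) had Foxn3, 8 had Rfx3 and 1, Dnaaf5, had Foxn4. The differences between these lists were not tested.

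**Figure D4:**
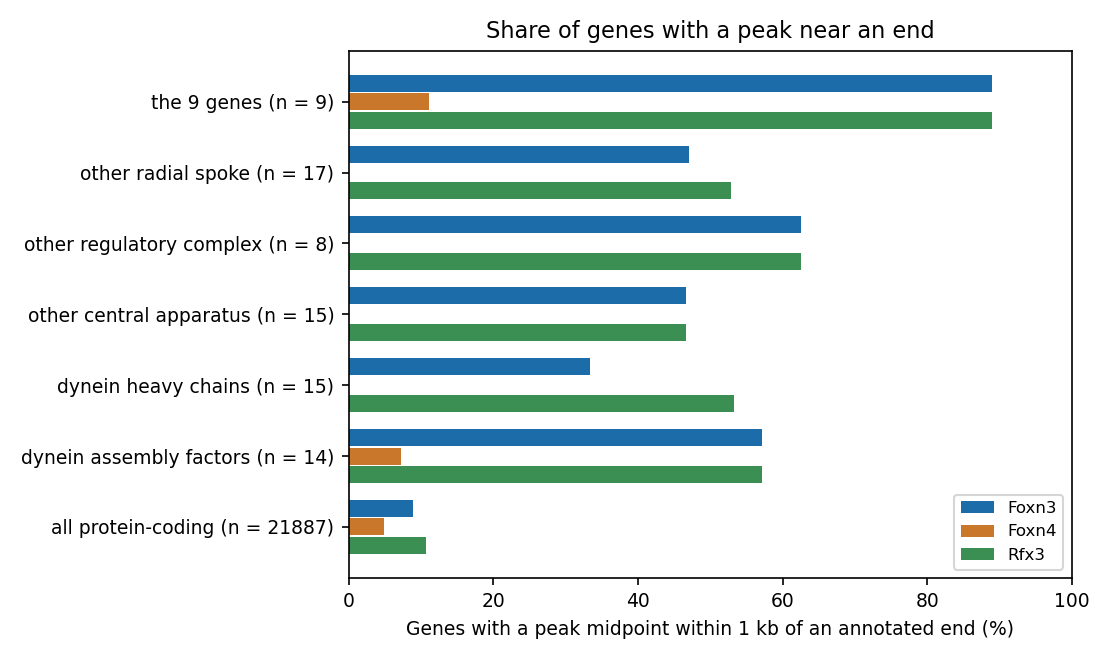
Percentage of genes with a peak midpoint within 1 kb of an annotated end, for the 9 genes, 5 lists of other axonemal genes and all protein-coding genes; a missing bar is a count of 0. Foxn3 and Rfx3 bars reach 88.9% for the 9 genes and 33.3% to 62.5% for the other lists, against 8.82% and 10.6% of all protein-coding genes.

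By score percentiles in the 3 lists, with 0 where no peak lay near an end, the genes closest to the medians of the 9 (89.2 for Foxn3, 0 for Foxn4 and 71.9 for Rfx3) were Fam32a, Ift43, Mier1, Wdr78 and Wdr60, at Euclidean distances of 2.11 to 3.06 percentile points. Mier1 and Wdr78, both on chromosome 4, had the same percentiles, 89.8 and 74.1, and so may share the same peaks. Ift43 stood at 88.4 and 73.8, Wdr60 at 88.5 and 68.9 and Fam32a at 89.3 and 69.8. Likeness was measured over 3 values a gene.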

How the data were processed

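CUT&RUN peaks were analysed from 3 lists, as deposited by the authors, in mm10 coordinates per the file headers and printed counting from 1. Each peak carries a score deposited by the authors, whose scaling and threshold are not given in the sources used here. It ranked peaks within a list only. Per the submitters' processing notes, cutadapt, Bowtie2, UMI-tools, bedtools and SEACR were used, with no roles or versions. Which libraries entered a list, and how IgG was used, is not stated. Foxn3 peak numbers run to 3645 with 851 absent. The 21887 protein-coding genes and the promoter windows came from RefSeq tables of GRCm38.p6. Peaks were placed by midpoint, and lists overlapped where at least 1 bp was common. Symbols were matched directly, by synonym or by an older symbol, and Rsph10b was unmatched. Motifs were searched on both strands with Python 3.11.15 and pandas 2.3.3, and the counting was tested on simulated data. No p-value was computed. Named genes were the 9 members with all their peaks, neighbours with an end within 1 kb, up to 4 genes a list by Rfx3 percentile, and the 5 genes nearest the members' medians. A neighbouring gene of Drc7 is not reported here. The neighbours of the other lists' genes, Dnaaf5, Gm26832 and the Tom1l2 window were singled out after their values were seen. So were Dydc1, Dydc2, Dnah7a, Dnah7b and Dnah7c. The members and lists were chosen with earlier results of these data known. Alternatives changed the distance, the peak position, the score minimum, the overlap, the ranking and the motif.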

Additional observations from a re-analysis of the deposited data

How the results depend on the processing

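Of 61 alternative values for 22 results, 55 were counts that stayed within 1.5 times the reported count, and 6 moved. The 6 include the median percentiles ranked by width, which that limit does not describe. For Foxn4 that percentile went only from 97.5 to 88.0. With a distance of 5 kb, 2 of the 9 genes had a Foxn4 peak, the added gene being Drc7, and 5 of the other axonemal genes did in place of 1. With only peaks at or above the median score of their list, that 1 gene fell to 0. Ranked by width in place of score, the median percentile was 46.9 for Foxn3, 30.6 for Rfx3 and 88.0 for the lone Foxn4 peak at Drc3. The 8 genes with Foxn3 and with Rfx3 near an end stayed 8 at 500 bp and with any base of a peak in place of its midpoint. Read depth and spread between libraries are unknown, so no result here has a replicate check. No paired analysis was possible because each antibody has 1 list that does not separate replicates.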

Other observations

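Promoter windows of protein-coding genes with a peak midpoint inside them held the searched motifs at other shares than windows without one. The X-box with both arms occurred in 12.9% (137 of 1059, 95% Wilson interval 11.0% to 15.1%, counting error only) of windows with Foxn3 and Rfx3 midpoints and in 1.04% (199 of 19100, 0.907% to 1.2%) of windows with no midpoint of any list. GTTGCC occurred in 29.3% (26.6% to 32.1%) and 11.2% (10.7% to 11.6%), and GACGC in 58.4% (55.4% to 61.3%) and 30.8% (30.1% to 31.4%). In the 775 windows with a Foxn4 midpoint the X-box with both arms occurred in 4.26% (3.05% to 5.92%) and GACGC in 58.2% (54.7% to 61.6%). GTAAACA occurred in 3.12% (2.88% to 3.38%) of windows with no midpoint. It occurred in 2.17% (1.45% to 3.24%) of windows with Foxn3 and Rfx3 midpoints and in 2.21% (1.6% to 3.06%) of windows with an Rfx3 midpoint. Both intervals overlap that of windows with no midpoint. The intervals for windows with a Foxn3 midpoint, 1.96% (1.36% to 2.83%), and with a Foxn4 midpoint, 1.29% (0.702% to 2.36%), lie below it. Windows can share a gene or overlap, and base composition differs between them, so these shares are descriptions and no difference was tested.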
